A study of Homo sapiens with 4 samples.

Results

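Integrins are the main receptors through which cells hold on to their matrix, and laminins, nidogens, perlecan and agrin are glycoproteins of the basement membrane to which many of them bind. The genes described here are those whose symbol names an integrin alpha chain, an integrin beta chain from ITGB1 to ITGB8, a laminin chain, NID1 or NID2, together with HSPG2, AGRN and DAG1. They were taken by symbol alone, and 37 of the 17687 measured genes met the rule. ITGA1, LAMA3, LAMA5, LAMB3 and DAG1 also match the rule but were not analysed here.

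RNA came from KGN cells, a line established from a human granulosa cell tumour, and was hybridised to Clariom S Human arrays. The siNC group had received a control siRNA at 10 nM, and the siYT group siRNAs against YAP and TAZ at 5 nM each. After 48 h the medium was changed to medium without or with 8Br-cAMP, a cyclic AMP analogue that enters cells, at 0.5 mM for 24 h, which gave the groups siNC, siYT, siNC+8Br-cAMP and siYT+8Br-cAMP. Each of the 4 groups was 1 array of 1 cell line. No difference could therefore be set against the spread between cultures, and all values below describe these 4 arrays.

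An integrin is a pair of 1 alpha and 1 beta chain, and the pair sets which ligand is bound: collagen, laminin, or proteins with an arginine-glycine-aspartate (RGD) motif such as fibronectin and vitronectin. Laminins are trimers of an alpha, a beta and a gamma chain that polymerise into a sheet, which nidogens and perlecan tie to the type IV collagen network. In the ovary, granulosa cells rest on the basement membrane of the follicle, and integrin adhesion is one of the inputs that act on YAP and TAZ, the coactivators of TEAD transcription factors.

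Values are the deposited log2 signals. A gene was called in a comparison when its 2 values lay 1 log2 unit (2-fold) or more apart and the higher one reached 6.22, the median signal of the probe sets that name a gene, used as level filter. A call in both media or after both siRNAs needed a difference of that size in the same direction in each, with the highest of the 4 arrays at the filter. Of the 37 members, 22 (59.5%) reached that filter on at least 1 array, against 55.1% of all genes. The other 15 were ITGA10, ITGA2B, ITGA8, ITGA9, ITGAD, ITGAL, ITGAM, ITGAX, ITGB2, ITGB4, ITGB6, ITGB7, LAMA2, LAMB4 and LAMC3, whose values lay between 2.66 and 6.12. They include the alpha chains ITGAL, ITGAM, ITGAX and ITGAD and the beta chain ITGB2 of leukocyte integrins. They also include ITGA2B, the alpha chain of the platelet integrin, and ITGB4, the partner of ITGA6 in hemidesmosomes. ITGAE, the other measured leukocyte integrin alpha chain, reached the filter on all 4 arrays. Levels of different genes come from different probes and are not compared.

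The arrays as a whole set the scale for these values. Array medians lay between 6.20 and 6.27, and YAP1 and WWTR1, the targets of the siRNAs, were called lower after siYT in both media, with differences of -2.69 and -3.17 for YAP1 and of -2.13 and -3.79 for WWTR1. The 612 negative control probe sets of the array passed the rule for a call in 8.33% to 13.6% of cases per comparison, in either direction, against 8.06% to 14.9% of genes. A single call thus carries little weight. The 2197 positive control probe sets were lower after siYT, by a median difference of -0.36 in plain medium and -0.35 in medium with 8Br-cAMP, and their part in the siRNA differences was not tested. Of 11 measured granulosa markers, 5 to 7 reached the filter per array, and FOXL2, INHA and AMHR2 were under it on all 4. The summed log2 level of the 11 was 81.7 in siNC and 94.5 in siYT, and 96.2 and 104.2 with 8Br-cAMP. Its members differed in opposite directions after siYT: CYP19A1 (aromatase) by 9.23 and 3.29, GJA1 by 3.64 and 2.31, and KRT18 by -4.02 and -4.71. CYP19A1 was at 5.04 in siNC, under the filter, so the first of its differences depends on the background. The 8 epithelial markers were all under the filter on every array (summed level 27.2 to 28.4), as was PTPRC, the defining leukocyte marker. Of 11 leukocyte markers, CD68 and TYROBP reached it on each array, with a summed log2 level between 53.5 and 58.6, and CD68, a lysosomal protein, was 1.92 and 2.82 higher after siYT. Of 10 endothelial markers 0 to 2 reached it (43.9 to 49.3), and of 5 platelet markers 0 or 1 (22.5 to 23.9). Of 10 fibroblast and theca markers, 5 reached the filter in each siNC array and 7 in each siYT array, where DCN and LUM were added. Their summed log2 level was 80.4 and 80.5 in the siNC arrays and 94.8 and 89.1 in the siYT arrays, and its part in the results was not tested. Fewer cells with a transcript and less of it per cell cannot be told apart in such samples.

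**Figure D1:**
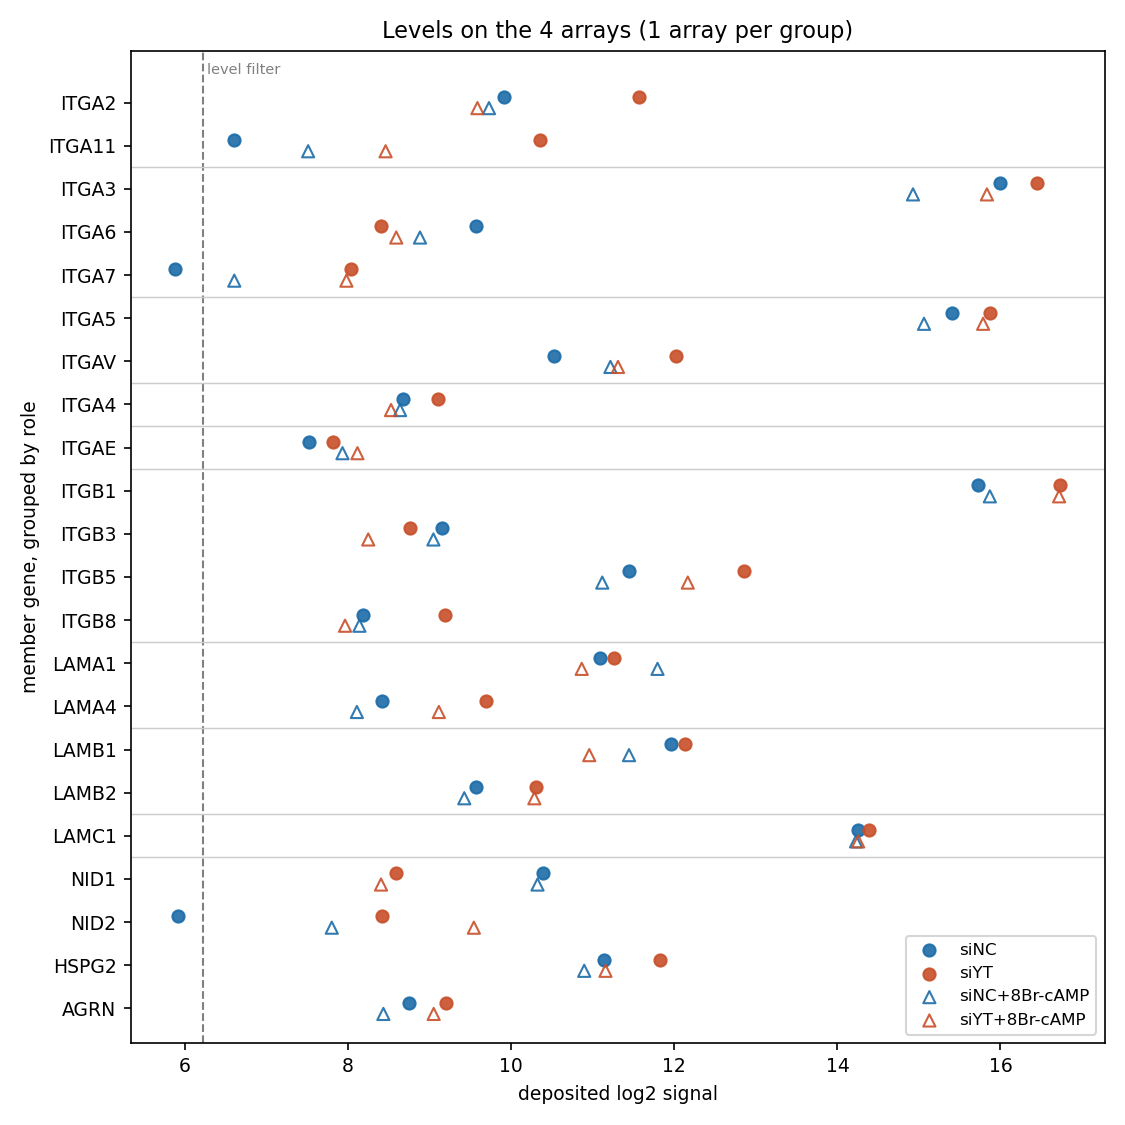
Deposited log2 signal (x axis) of the 22 members that reach the level filter (y axis, grouped by role), with 1 point per array: filled circles without and open triangles with 8Br-cAMP, blue for siNC and orange-red for siYT. NID2 and ITGA11 cover the widest spans, from 5.92 to 9.54 and from 6.60 to 10.35, while LAMC1 stays between 14.23 and 14.39.

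The first comparison asked how YAP/TAZ siRNA bore on these genes in each medium. Without 8Br-cAMP, 9 members were called higher after siYT and 2 lower; with it, 4 were called higher and 1 lower. NID2, ITGA7, ITGB5 and LAMA4 were higher and NID1 lower in both media. The pair of nidogens thus differed in opposite directions. The 9 members called higher without 8Br-cAMP are 24.3% of the 37, where 7.6% of all genes were called higher, and the 2 called lower are 5.41%, where 7.32% of all genes were. With 8Br-cAMP the 4 called higher are 10.8%, against 5.52% of all genes, and the 1 called lower is 2.70%, against 5.94%. In both media alike, 3.44% of all genes were called higher and 3.89% lower, and 4.74% of the negative controls in either direction. Over all 37 members the median difference was 0.31 without and 0.20 with 8Br-cAMP, beside 0.02 and 0.06 over all genes. Over the 22 members at the filter it was 0.58 and 0.22, beside 0.04 and -0.0035 over all genes at the filter.

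Among the matrix proteins, the nidogens stood out. NID2 was at 5.92 in siNC and 8.42 in siYT without 8Br-cAMP, and at 7.80 and 9.54 with it. The siYT array was the higher in each medium, by 2.50 (5.66-fold) without and 1.74 (3.35-fold) with 8Br-cAMP. Its siNC value lay under the filter, so the first of these folds depends on the background. NID1 was at 10.39 in siNC and 8.59 in siYT without 8Br-cAMP, and at 10.32 and 8.40 with it. It was lower in both siYT arrays, with differences of -1.80 (3.48-fold) and -1.92 (3.78-fold), and hardly differed between the media. Both nidogens bind laminin and type IV collagen.

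The bases before the start site of each nidogen gene are shown because the genes were called in opposite directions in both media. They are taken from RefSeq (GRCh38.p14), 250 bases before the start at chr14:52069060-52069309 for NID2 and chr1:236065091-236065340 for NID1, both on the minus strand and written 5′ to 3′ on the gene's strand. ITGB1 (chr10:32958231-32958480, minus strand) is added, chosen after its values were seen, because its window holds a match to the TEAD motif GGAATG, given in capitals.
NID2: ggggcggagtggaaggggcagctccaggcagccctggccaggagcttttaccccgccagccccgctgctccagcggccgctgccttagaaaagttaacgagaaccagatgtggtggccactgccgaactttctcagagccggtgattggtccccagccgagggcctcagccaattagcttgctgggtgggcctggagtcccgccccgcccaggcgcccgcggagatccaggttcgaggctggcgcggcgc
NID1: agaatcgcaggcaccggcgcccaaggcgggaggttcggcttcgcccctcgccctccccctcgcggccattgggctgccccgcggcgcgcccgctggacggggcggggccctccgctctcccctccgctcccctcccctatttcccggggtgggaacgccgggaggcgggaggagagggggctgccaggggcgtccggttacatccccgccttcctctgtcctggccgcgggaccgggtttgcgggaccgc
ITGB1: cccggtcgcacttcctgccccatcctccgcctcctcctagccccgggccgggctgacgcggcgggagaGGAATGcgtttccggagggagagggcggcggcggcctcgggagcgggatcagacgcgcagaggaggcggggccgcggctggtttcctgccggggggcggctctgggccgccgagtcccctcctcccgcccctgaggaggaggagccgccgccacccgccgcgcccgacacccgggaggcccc
On both strands, 3 motifs were searched: GGAATG of TEAD factors, TGACGTCA of cyclic AMP response element binding factors and TGANTCA of AP-1, which do not contain one another. Neither nidogen window held any of them, and the ITGB1 match lies 182 to 177 bases before the start. The table held windows for 25 of the 37 members, 30 in all, and 4 of these held GGAATG, those of ITGA5, ITGA10, ITGB1 and LAMA2. Over all 35116 windows, 11.9% held GGAATG, 1.65% TGACGTCA and 6.57% TGANTCA, and no member window held the latter 2. The 3 start sites listed for ITGB5 had no match either. By base composition, the NID1 window has 76.4% G and C with 30 CG steps, and the NID2 window 68.0% with 18.

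The laminin chains differed less than the nidogens after siYT. LAMA4, the alpha chain of laminins in vessel and mesenchymal basement membranes, was at 8.42 in siNC and 9.69 in siYT without 8Br-cAMP, and at 8.11 and 9.11 with it. Both siYT values lay above both siNC values, by 1.27 (2.41-fold) and 1.01 (2.01-fold) within the same medium. The second of these is at the threshold and came to 0.93 when 32 was added to each linear value. LAMB2, a beta chain with values from 9.43 to 10.31, differed by 0.74 and 0.86 and was not called. LAMC1, the gamma chain shared by most laminins, differed by 0.14 and 0.03, with the smallest span over the 4 arrays of the members that reached the filter (0.16). LAMB1, another beta chain, differed by 0.17 and -0.49, and LAMA1, the alpha chain of early embryonic laminin, by 0.16 and -0.93. Of the 8 measured laminin chains, 1 was called higher in each medium and 0 lower, with LAMA2, LAMB4 and LAMC3 under the filter. Over all genes, 7.6% and 5.52% were called higher and 7.32% and 5.94% lower, so these counts do not set the laminins apart. The heparan sulfate proteoglycans perlecan (HSPG2) and agrin (AGRN) were not called, with values from 10.90 to 11.82 for HSPG2 and from 8.43 to 9.20 for AGRN. Their siRNA differences were 0.68 and 0.26 for HSPG2 and 0.46 and 0.62 for AGRN.

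The collagen-binding integrin alpha chains ITGA11 and ITGA2 had large differences without 8Br-cAMP. ITGA11, a collagen receptor chain typical of fibroblasts, was at 6.60 in siNC and 10.35 in siYT without 8Br-cAMP, and at 7.51 and 8.46 with it. The siYT array stood above the other 3, with a difference of 3.75 (13.5-fold) without 8Br-cAMP and of 0.95 (1.93-fold) with it. Its siNC value lay under 6.95, a level that 95% of negative control values do not exceed, so the first of these folds depends on the background. The second difference was under the threshold as deposited, and came to 1.0008 when each array was centred on its median. ITGA2, which binds collagen on epithelial cells and platelets, was at 9.91 in siNC and 11.57 in siYT without 8Br-cAMP, and at 9.73 and 9.59 with it. Again only siYT was set apart, 1.66 (3.17-fold) above siNC, and the siRNA difference with 8Br-cAMP was -0.14. ITGA10, the third chain of this kind that was measured, was under the filter throughout, and ITGA1 was not analysed.

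The 3 laminin-binding alpha chains did not differ in one direction. ITGA7, a laminin receptor chain best known from muscle, was at 5.88 in siNC and 8.04 in siYT without 8Br-cAMP, and at 6.60 and 7.98 with it. Both siYT arrays lay above both siNC arrays, by 2.15 (4.45-fold) and 1.37 (2.59-fold), from an siNC value under the filter. ITGA6, the laminin receptor chain of epithelia, was at 9.57 in siNC and 8.41 in siYT without 8Br-cAMP, and at 8.88 and 8.59 with it. The siNC array was the highest, with a difference of -1.16 without and of -0.29 with 8Br-cAMP. ITGA3, which forms a laminin receptor with ITGB1, was at 15.99 in siNC and 16.45 in siYT without 8Br-cAMP, and at 14.93 and 15.83 with it, and its siRNA differences of 0.46 and 0.91 were not called.

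Of the chains of RGD-binding receptors, ITGAV, which pairs with several beta chains, was at 10.53 in siNC and 12.02 in siYT without 8Br-cAMP, and at 11.22 and 11.31 with it. The difference was 1.49 (2.81-fold) without and 0.09 with 8Br-cAMP. ITGA5, the alpha chain of the main fibronectin receptor, lay between 15.06 and 15.87, differed by 0.47 and 0.73 and was not called. ITGA4, which binds fibronectin and VCAM1, lay between 8.53 and 9.10 and differed by 0.43 and -0.11. ITGAE, a leukocyte integrin alpha chain whose known ligand is E-cadherin, lay between 7.52 and 8.11 and differed by 0.29 and 0.18. The largest difference of either was with 8Br-cAMP, -0.57 after siYT for ITGA4 and 0.41 after siNC for ITGAE.

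Of the 8 measured beta chains, 4 of which reached the filter, 3 were called higher after siYT without 8Br-cAMP and 1 with it. In each medium 0 were called lower. Over all genes, 7.6% and 5.52% were called higher and 7.32% and 5.94% lower, so a count of 0 among so few chains says little. ITGB5, the partner of ITGAV in a vitronectin receptor, was at 11.44 in siNC and 12.85 in siYT without 8Br-cAMP, and at 11.12 and 12.17 with it. Both siYT values exceeded both siNC values, by 1.41 (2.65-fold) and 1.05 (2.07-fold). ITGB1, the common partner of the collagen- and laminin-binding alpha chains, was at 15.72 in siNC and 16.74 in siYT without 8Br-cAMP, and at 15.87 and 16.72 with it. The arrays separated by siRNA here too, by 1.01 and 0.85, but the call without 8Br-cAMP was lost when arrays were centred (0.97) or scaled by cyclic loess (0.90). Some of its values exceed 16, as does that of ITGA3 in siYT (16.45), which is more than the log2 of a 16-bit reading can be. All deposited values may therefore have been rescaled in a step no source here records. The folds given here, for any gene, need not be ratios of scanner signals. ITGB8, a partner of ITGAV that binds latent TGF-beta, was at 8.18 in siNC and 9.19 in siYT without 8Br-cAMP, and at 8.14 and 7.96 with it. Only siYT was set apart, and its difference of 1.01 came to between 0.93 and 0.96 under 3 other scalings. ITGB3, the other well-known partner of ITGAV, lay between 8.25 and 9.15 and was not called, with differences of -0.39 and -0.80.

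An additive limma fit with siRNA and 8Br-cAMP as terms was run on all 17687 genes as a secondary reading. Its error is the difference between the 2 siRNA differences, with 1 residual degree of freedom moderated over all genes, so it is no test between replicates, and its adjusted p-values can be too small. For the siRNA it called 5 members higher, where it called 4.3% of all genes higher, and 1 lower, against 4.67%. These were NID2 (2.12, SE 0.328, limma adjusted p = 0.00312), ITGA7 (1.76, SE 0.329, adjusted p = 0.00852), ITGA11 (2.35, SE 0.534, adjusted p = 0.0219), ITGB5 (1.23, SE 0.311, adjusted p = 0.0352), LAMA4 (1.14, SE 0.309, adjusted p = 0.0469) and NID1 (-1.86, SE 0.307, adjusted p = 0.00434). With 32 added to each linear value the fit called 0 members and 0 of all genes.

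**Figure D2:**
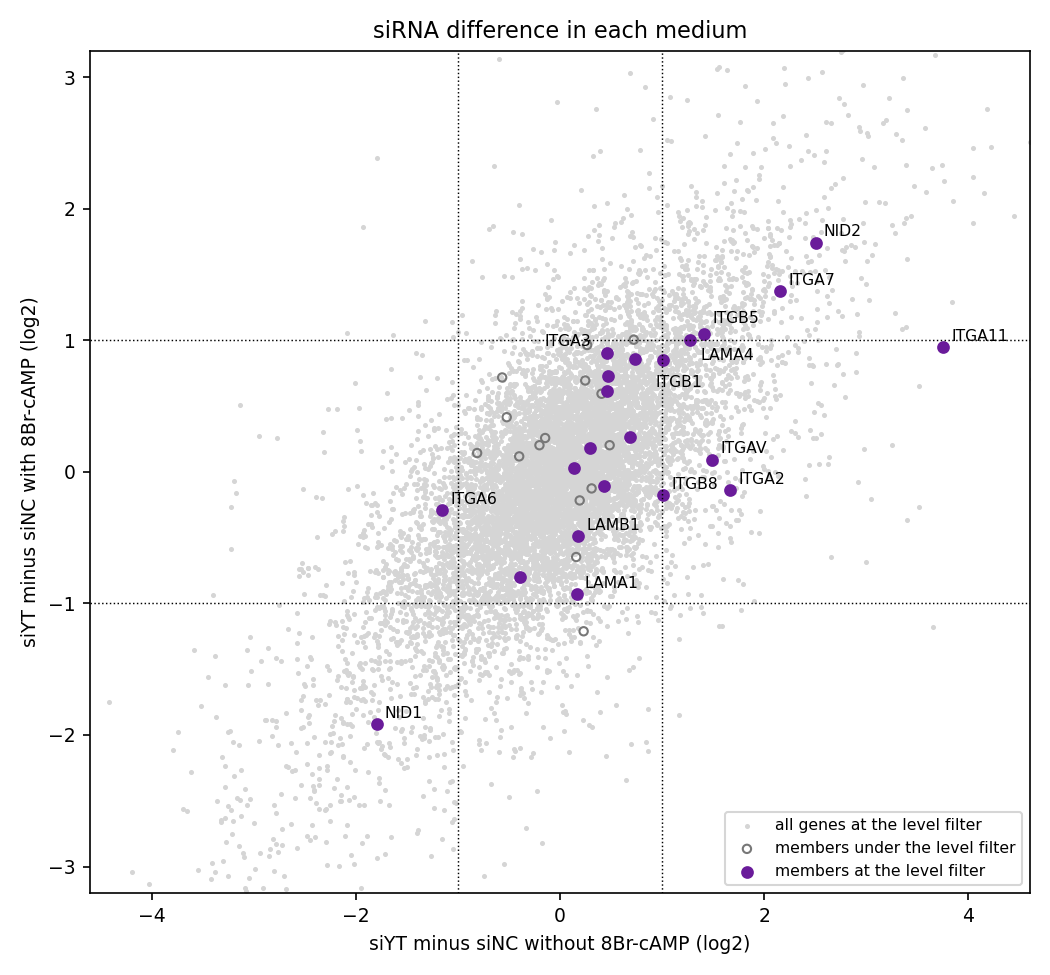
The siRNA difference (siYT minus siNC, log2) without 8Br-cAMP (x axis) and with it (y axis), with 1 point per gene: members at the level filter in purple, members under it as open circles, and all 9752 genes at the filter in grey, 124 of which lie outside the axes. Dotted lines mark a 2-fold difference; NID2, ITGA7, ITGB5 and LAMA4 lie past both lines at the upper right, NID1 at the lower left, and ITGA11, ITGA2, ITGAV, ITGB1 and ITGB8 past the right vertical line alone.

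The second comparison asked how 8Br-cAMP bore on these genes after each siRNA. NID2 was the 1 member called higher after both siRNAs, by 1.88 (3.69-fold) after siNC and 1.12 (2.18-fold) after siYT, so that its 4 arrays ran from siNC as the lowest to siYT+8Br-cAMP as the highest. The first of these folds starts from an siNC value of 5.92, under the filter, and so depends on the background. After siNC, ITGA3 was the 1 member called lower, with a difference of -1.06 (2.09-fold). After siYT, 4 members were called lower: ITGA2 (-1.99, 3.96-fold), ITGA11 (-1.89, 3.71-fold), ITGB8 (-1.22, 2.33-fold) and LAMB1 (-1.18, 2.26-fold). LAMB1 was at 11.96 in siNC and 12.13 in siYT without 8Br-cAMP, and at 11.45 and 10.96 with it, the last being the lowest.

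These counts were small. After siNC, 1 of 37 members was called higher and 1 lower, 2.70% each, where 4.32% and 3.74% of all genes were. After siYT, 1 was called higher (2.70%) and 4 lower (10.8%), where 4.06% and 4.15% of all genes were. After both siRNAs, 1 was called higher and 0 lower, where 1.74% and 1.31% of all genes were. The median difference over the 37 members was -0.15 after either siRNA, beside -0.03 and -0.02 over all genes. Over the 22 members at the filter it was -0.08 after siNC and -0.45 after siYT. Over all genes at the filter it was 0.04 and -0.01, and the contrast between the siRNAs was not tested. NID1, at -0.06 and -0.18, and ITGB1, at 0.15 and -0.02, differed little with 8Br-cAMP. The limma fit called 0 members for 8Br-cAMP, where it called 1.15% of all genes higher and 0.662% lower. For NID2 the mean difference was 1.504 (SE 0.328, limma adjusted p = 0.0510).

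The third comparison set the siRNA difference with 8Br-cAMP against that without it. This difference of differences uses each array once and is the same number when the 8Br-cAMP differences of the siRNAs are subtracted instead. With the threshold used above, 5 members were called negative and 0 positive: ITGA11 (-2.80), ITGA2 (-1.81), ITGAV (-1.397), ITGB8 (-1.18) and LAMA1 (-1.09). These are 13.5% of the members, where 4.82% of all genes were called negative and 3.57% positive. Of the negative controls, 13.6% were called in this comparison in either direction, close to the share of the members. Of the called genes, 42.5% were positive as deposited and 53.6% after centring each array, so this balance depends on the scaling, and with centring the LAMA1 value was -0.998 and not called.

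In ITGA11, ITGA2, ITGAV and ITGB8 the siYT array was the highest of the 4, and the siYT+8Br-cAMP value differed from it by -1.89, -1.99, -0.71 and -1.22. With 8Br-cAMP, ITGA2 and ITGB8 after siYT were under both siNC values, ITGAV was above both by 0.09 or more, and ITGA11 was 0.95 above siNC+8Br-cAMP. LAMA1 was different in shape, at 11.09 in siNC and 11.26 in siYT without 8Br-cAMP, and at 11.79 and 10.87 with it, with siNC+8Br-cAMP the highest. Against these, NID1 (-0.12), ITGB1 (-0.16), LAMA4 (-0.27) and ITGB5 (-0.36) had siRNA differences of similar size in both media, and NID2 (-0.76) and ITGA7 (-0.78) lay between. With 1 array per group, a single deviating siYT array and a response that depends on the medium cannot be told apart.

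**Figure D3:**
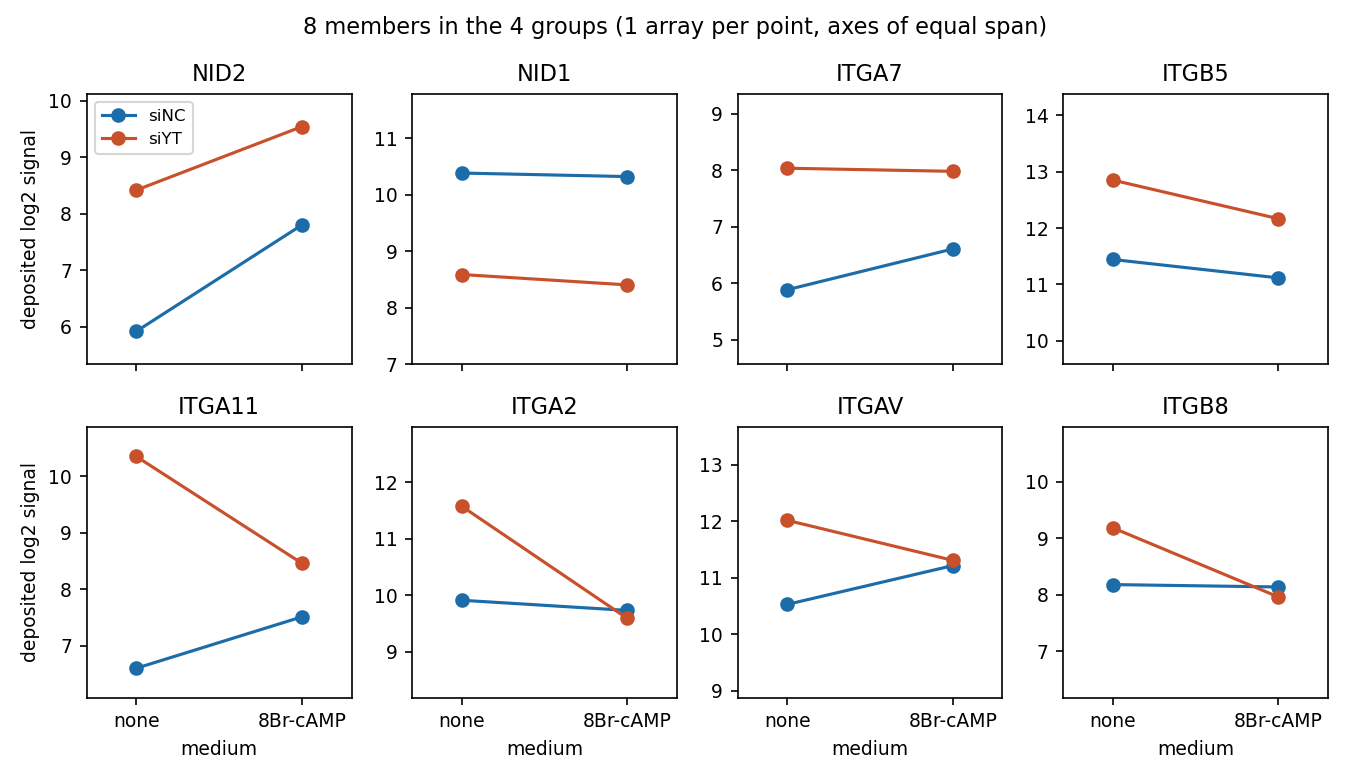
Deposited log2 signal (y axis, the same span in each panel) of 8 members without and with 8Br-cAMP (x axis), with 1 array per point, blue for siNC and orange-red for siYT. In the upper row the lines stay apart, with siYT 2.50 and 1.74 above siNC for NID2 and differences of -1.80 and -1.92 for NID1. In the lower row they come closer with 8Br-cAMP. The siRNA difference goes from 3.75 to 0.95 for ITGA11 and from 1.66 to -0.14 for ITGA2.

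The genes around these receptors were read from 4 lists of proteins that work with them, to be set beside the shares and medians of all genes given above. In the list of integrin adaptors and focal adhesion proteins, 34 genes were measured. After siYT, 3 were called higher and 5 lower without 8Br-cAMP, and 0 higher and 4 lower with it, with medians of -0.11 and -0.36. FERMT1 (kindlin-1, which activates integrins) differed by -1.93 and -1.73, the actin-linked protein ZYX (zyxin) by -1.34 and -1.71, and the paxillin relative LPXN by -1.34 and -1.38. LIMS1, part of the complex with integrin-linked kinase, differed by 1.42 and 0.97. With 8Br-cAMP, PXN (paxillin) differed by -1.74 after siNC and -1.396 after siYT, and VASP, an actin regulator, by -1.37 and -1.69. After both siRNAs, 1 adaptor was called higher and 4 lower, among them FERMT1, whose values after siYT (5.91 and 4.69) both lay under the filter. The median of the receptors and matrix proteins was thus above 0 after siYT and that of the adaptors below it; the difference between the lists was not tested.

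Of 22 other basement membrane components, 4 were called higher and 2 lower after siYT without 8Br-cAMP, and 2 higher and 1 lower with it, with medians of 0.19 and 0.28. HMCN1 (hemicentin-1) was 5.78 and 4.62 higher, COL4A5, a type IV collagen chain, 2.10 and 1.72 higher, and FBLN2 (fibulin-2) differed by 2.17 and 0.83. The siNC value of COL4A5 (5.44) lay under the filter, so differences from it depend on the background. NTN4, a netrin with a laminin-like domain, differed by -1.89 and -1.90, close to the values of NID1. COL4A1 and COL4A5 were called higher with 8Br-cAMP after both siRNAs, by 1.80 and 1.07 and by 1.43 and 1.05, as was NID2.

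Of 19 measured genes of the dystroglycan complex and its glycosylation, 5 were called higher and 0 lower after siYT without 8Br-cAMP, and 3 higher and 1 lower with it, with medians of 0.56 and 0.54. SGCB, a sarcoglycan, was 1.76 and 1.98 higher. DTNA (dystrobrevin alpha) differed by 2.53 and 0.9989, the first from an siNC value of 5.73, under the filter. B4GAT1, which acts in the glycosylation of dystroglycan, differed by 1.96 and 0.87, and SSPN (sarcospan) by 1.23 and 0.85. With 8Br-cAMP, POMGNT2, another enzyme of that glycosylation, was 0.98 and 1.68 higher and POMGNT1 1.07 and 0.81.

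Of 14 surface partners, 3 were called higher and 1 lower after siYT without 8Br-cAMP, and 5 higher and 0 lower with it, with medians of 0.64 and 0.69. The tetraspanins CD82 (2.13 and 2.06), CD63 (1.32 and 1.25) and CD151 (1.20 and 1.09), membrane proteins that associate with integrins, were higher in both media. SDC1, the proteoglycan syndecan-1, differed by -3.13 without and 0.51 with 8Br-cAMP. The SDC1 value in siYT (5.98) lay under the filter, so the first of these depends on the background. With 8Br-cAMP, SDC4, a relative of SDC1, differed by -1.75 and -2.08, and SLC3A2, which binds integrin beta chains, was 1.49 and 1.24 higher.

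**Figure D4:**
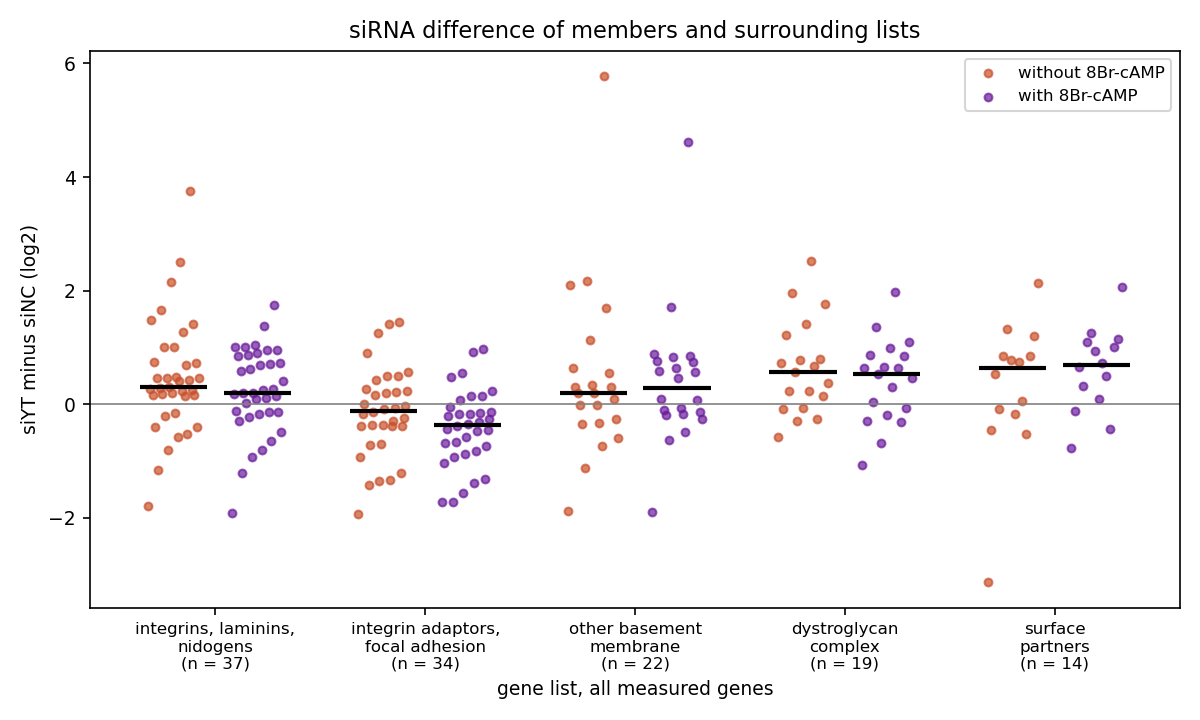
The siRNA difference (siYT minus siNC, log2, y axis) of every measured gene in the member list and the 4 surrounding lists (x axis), without 8Br-cAMP in orange-red and with it in purple; black bars are medians. The medians of the members are 0.31 and 0.20 and those of the adaptors -0.11 and -0.36, and genes of each list lie on both sides of 0.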

How the data were processed

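RNA of 4 KGN cultures was measured on 4 arrays. The authors deposited log2 values that the submitters' processing notes tie to RMA and the Affymetrix Expression Console. Versions, and the build behind the probe names, are not given in the sources used here. RMA corrects background, equalises the arrays' distributions and summarises each probe set. Deposited values ran from 1.39 to 19.36.

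Of 24351 probe sets, 17709 named 1 gene and gave 17687 genes (probe sets of a gene averaged); every member had 1 probe set. Differences were computed between arrays with pandas 2.3.3, and the additive model with limma 3.58.1 in R 4.3.3 over all genes, with Benjamini-Hochberg adjustment at 0.05. In tests on simulated data that fit recovered planted changes, but in most runs its share of wrong calls exceeded the threshold. Its adjusted p-values can therefore be too small, and it is secondary to the sizes. The number of arrays limits the precision.

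The members and lists were chosen with earlier results of these data known. Members called in any difference, 14 of them, have all 4 values printed, and the 8 others at the filter their differences; in each surrounding list up to 4 genes with the largest siRNA and 2 with the largest 8Br-cAMP difference on average among those at the filter are named, and COL4A5 falls under both. Motifs were searched in the RefSeq promoter windows, without the bases after the start. Protein sequences were not used here. Alternatives were the level filter, centring, cyclic loess, an added 32, the choice of probe set and a threshold of 1.5-fold.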

Additional observations from a re-analysis of the deposited data

Results flagged for a closer look

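For 5 members at the level filter, the siRNA or the 8Br-cAMP difference had opposite signs in the 2 conditions compared, with a difference of differences past 2-fold. This difference was not tested, since each group is 1 array. ITGA11 (-2.80) had 8Br-cAMP differences of 0.91 after siNC and -1.89 after siYT. ITGA2 (-1.81) had siRNA differences of 1.66 without and -0.14 with 8Br-cAMP. For ITGAV (-1.397) the 8Br-cAMP difference was 0.69 after siNC and -0.71 after siYT. ITGB8 (-1.18) had siRNA differences of 1.01 and -0.18. LAMA1 (-1.09) had siRNA differences of 0.16 and -0.93 and 8Br-cAMP differences of 0.70 and -0.39.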

How the results depend on the processing

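Leaving out an array was not possible, since each group is 1 array, and no paired analysis was possible because no group has a replicate. Of the 14 members with a call, each with 5 differences, the values kept their side of the threshold in 66 to 70 of 70 cases per alternative other than the fold threshold. The choice of probe set could change nothing here, since each member has 1, and the filter settings leave the differences themselves unchanged. Of the alternatives that alter the values, centring kept 66 cases, cyclic loess 68 and the added 32 also 68. The exceptions were ITGB1, ITGB8, LAMA1, LAMA4 and ITGA11, given above, each within 0.1 of the threshold, and no called value changed sign. Of the differences not called, those of ITGB1 with 8Br-cAMP changed sign, from -0.02 to 0.04 after siYT with centring and from 0.15 to -0.01 after siNC with cyclic loess. Without a level filter, 5 members in place of 2 were called for 8Br-cAMP after siNC, with ITGA2B, ITGB6 and LAMB4 added from under the filter. Of all genes, 997 were then called higher and 1088 lower, in place of 764 and 662. At a threshold of 1.5-fold, 13 members in place of 5 were called for the siRNA with 8Br-cAMP and 8 in place of 5 in both media. At that threshold 7 in place of 2 were called for 8Br-cAMP after siNC, 9 in place of 5 after siYT and 2 in place of 1 after both siRNAs, and the difference of differences was called in 9 in place of 5. Over all 17687 genes that threshold called 2047 higher and 2077 lower for the siRNA with 8Br-cAMP, and 1348 and 1345 in both media. For 8Br-cAMP it called 1888 higher and 1629 lower after siNC, 1706 and 1712 after siYT, and 835 and 759 after both. The difference of differences was called positive in 1676 genes and negative in 2052. More calls at the lower threshold were thus not particular to the members. The limma fit called 1 member (NID2) for 8Br-cAMP after centring or cyclic loess in place of 0, and 0 in place of 6 for the siRNA with 32 added. Centring moved the median of all genes from 0.06 to 0.11 for the siRNA with 8Br-cAMP and from 0.01 to 0.10 for the difference of differences. The limma fit itself uses no level filter. Limiting its calls to genes that reach 6.95 on at least 1 array left 6 members called for the siRNA and 0 for 8Br-cAMP. Over all genes its calls went from 1586 to 1417 and from 321 to 305. Members near the background have differences that depend on its correction.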

Other observations

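Genes with integrin in their name that are no integrin chains were outside the rule. ITGBL1, a secreted protein with repeats like those of integrin beta chains, was at 10.00 in siNC and 11.34 in siYT without 8Br-cAMP, and at 9.44 and 11.45 with it. Both siYT arrays lay above both siNC arrays, by 1.33 and 2.02, and it was called in both media. ITGB3BP, a centromere protein first found as a binder of the ITGB3 tail, differed by -0.57 and -0.52 and was not called.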
